A study of Mus musculus with 28 samples.

Results

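The mitochondrial solute carriers of the Slc25 family were examined in liver, quadriceps, heart and gastrocnemius of aged and young mice. Members were all genes whose array symbol is Slc25a followed by a number in both deposited tables, and 46 genes met that rule, out of 18974 genes measured on both array types. The samples were total RNA of female C57BL/6J mice, an inbred strain, housed in groups on chow and killed after an overnight fast, with no genetic change or drug in any group. Liver and the quadriceps, a thigh muscle, each had 3 arrays at 24 months (103 weeks) and 3 at 6 months (24 weeks). Heart and the gastrocnemius, a calf muscle, each had 4 arrays at 24 months and 4 at 6 months, on a second array type. Whether each array stands for its own animal is not said in the labels, so the p-values cover spread among arrays, which may be technical. All values are on the log2 scale, where 1 unit stands for a factor of 2 in expression. Levels were compared within an array type and gene by gene, since probe sets of different genes differ in brightness for technical reasons.

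Slc25 proteins sit, with few exceptions, in the inner mitochondrial membrane, where each exchanges or carries small molecules that the membrane does not let through. Nucleotides, phosphate, amino acids, carboxylic acids, acylcarnitines, cofactors and metal ions are among their substrates, so the set of carriers in a cell bears on which pathways can span the mitochondrial and cytosolic compartments. Liver uses several of them for urea synthesis, gluconeogenesis and lipid synthesis, and muscle and heart use others to supply ATP to the contractile apparatus. The 46 genes were grouped by transported substrate: 3 for ADP/ATP exchange, 1 for phosphate, 4 for ATP-Mg/phosphate, 8 for cofactors and other nucleotides, 9 for amino acids, 4 for carboxylates, 1 for carnitine, 4 for iron and glutathione, 3 relatives of the uncoupling proteins, 1 for outer membrane dynamics and 8 of uncertain substrate.

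The arrays carried the markers of their labelled tissue. The mean over 6 hepatocyte markers lay between 13.6 and 13.7 in liver arrays and at 8.70 or below in quadriceps arrays. The mean over 7 skeletal muscle markers ran from 13.5 to 13.6 across quadriceps arrays and from 12.9 to 13.1 across gastrocnemius arrays. The 6 heart muscle markers averaged between 11.2 and 12.3 in heart and at most 7.35 in gastrocnemius. Single arrays stood apart: exocrine pancreas markers averaged 9.57 in replicate 2 of 24-month liver, against 6.28 to 6.75 in the other liver arrays. Hepatocyte markers averaged 8.70 in replicate 1 of 24-month quadriceps, against 6.18 to 7.32 in the other quadriceps arrays. Slow fibre markers averaged 9.48 in replicate 3 of 6-month quadriceps, against 6.73 to 8.12 in the others. Leukocyte markers averaged 6.80 in replicate 1 of 24-month gastrocnemius, against 5.74 to 6.09 in the other gastrocnemius arrays. Heart muscle markers averaged 11.2 and 11.4 in replicates 1 and 4 of 24-month heart, against 11.9 to 12.3 in the other heart arrays. Their part in the results below was not tested, apart from leaving out each array in turn. Array medians were 6.65 to 6.78 in liver and 6.53 to 6.58 in quadriceps, and 5.84 to 5.95 in heart and 5.54 to 5.63 in gastrocnemius. The mean level of 14 members in liver, 13 in quadriceps, 9 in heart and 10 in gastrocnemius lay below the lowest array median of that tissue. The tables hold no detection call, so such levels are not shown to lie above background, and folds that rest on them are ratios of the deposited values.

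The first question was which carriers differed between liver and quadriceps. The adenine nucleotide translocator Slc25a4 and the aspartate/glutamate carrier Slc25a12 were far lower in liver, while their paralogs Slc25a5 and Slc25a13 were far higher there. Slc25a47, Slc25a10 and the ornithine carrier Slc25a15 were also among the members much higher in liver. Averaged over both ages, 29 of the 46 members were higher in liver and 13 lower, and 4 did not pass the threshold (limma, adjusted p under 0.05). These are 63.0% and 28.3% of the members, against 47.7% and 29.5% of all 19928 genes. In bulk tissue fewer cells of a type and less RNA per cell cannot be told apart. Among the members, 15 (32.6%) lay more than 2 log2 units apart, against 9.12% of all genes. The median difference was 0.39 over the members and 0.13 over all genes. The shift of all genes depends on scaling: it was −0.05 after quantile normalization and −0.02 after centring arrays on their medians. Higher calls over all genes made up 61.7% as deposited, 45.3% after quantile normalization and 48.4% after centring. The 6 arrays of each tissue did not overlap for 24 members higher in liver and 12 lower, against 34.7% and 20.7% of all genes. Under all 3 scalings 26 members were higher in liver and 13 lower, against 34.6% and 29.4% of all genes, and Slc25a37, Slc25a51 and Slc25a54 were called higher with the deposited scaling only.

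**Figure D1:**
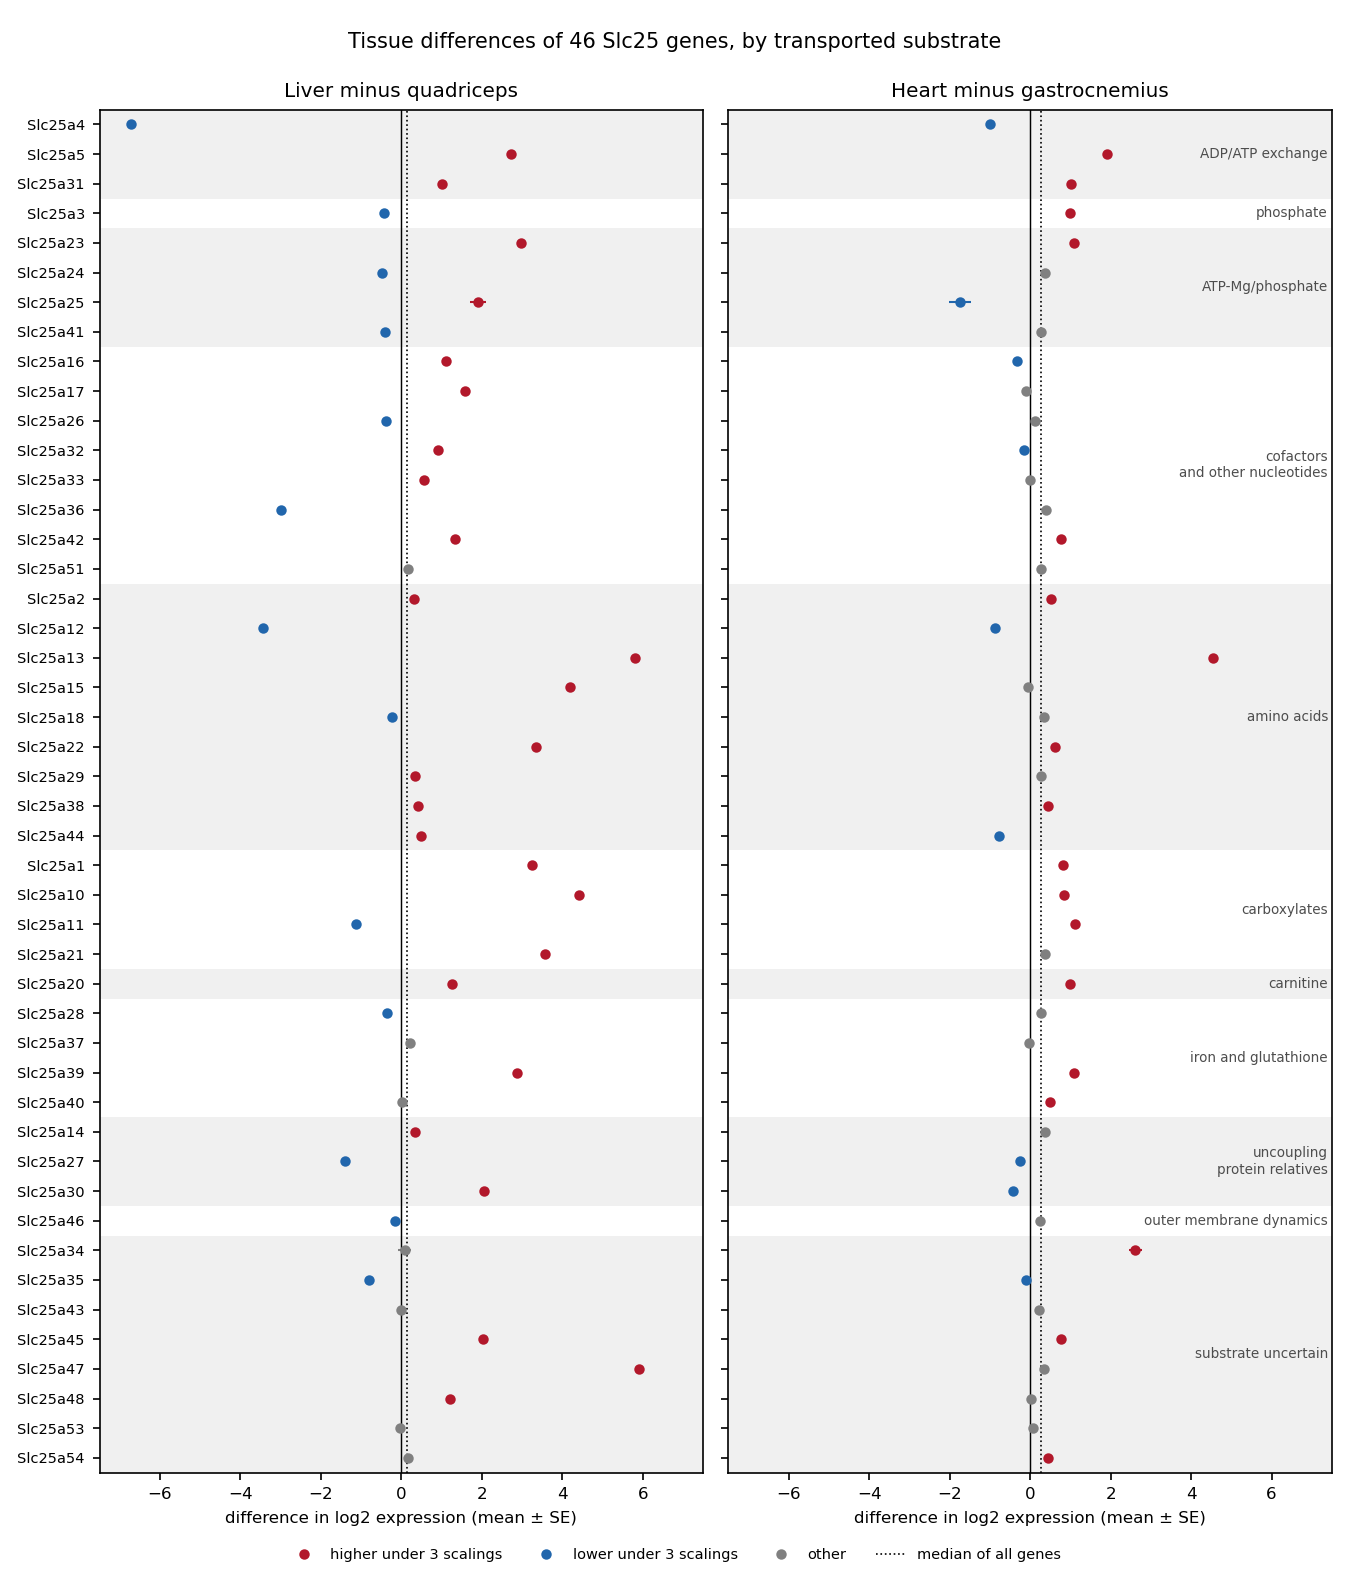
Differences in log2 expression (x axis, mean ± SE from limma) of the 46 Slc25 genes, grouped by transported substrate, for liver minus quadriceps (left, 6 arrays per tissue) and heart minus gastrocnemius (right, 8 arrays per tissue), both averaged over the ages. Red and blue points were called higher and lower under all 3 scalings; the left panel spans −6.72 to 5.91 and the right panel −1.74 to 4.55.

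The other question of tissue preference compared heart with gastrocnemius. Slc25a13 and Slc25a34, a member of uncertain substrate, were far higher in heart, followed by Slc25a5 and the oxoglutarate carrier Slc25a11. Slc25a25, Slc25a4 and Slc25a12 were lower in heart. Of the 46 members, 32 were higher in heart and 9 lower, against 66.6% and 16.2% of all 30063 genes. More than 2 log2 units separated the tissues for 2 members (4.35%), Slc25a13 and Slc25a34, against 1.44% of all genes. The median difference was 0.34 over the members and 0.27 over all genes; over all genes it was −0.01 after quantile normalization and −0.05 after centring. The 8 arrays of each tissue did not overlap for 27 members higher in heart and 6 lower, against 43.9% and 9.54% of all genes. Over all genes, higher calls made up 80.5% of the calls as deposited, 48.5% after quantile normalization and 41.6% after centring. Over the members they made up 78.0% as deposited, 56.4% after quantile normalization, with 22 higher and 17 lower, and 51.4% after centring, with 18 higher and 17 lower. Under all 3 scalings 18 members were higher in heart and 9 lower, against 29.2% and 15.8% of all genes, and the other higher calls were lost or turned under at least 1 of the other scalings. Slc25a26, Slc25a43 and Slc25a53 were called higher as deposited and lower under both others: Slc25a53 had a difference of 0.075 as deposited, −0.27 after quantile normalization and −0.24 after centring.

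Both comparisons were set side by side. They share no arrays, but the labels do not say whether the tissues came from the same animals. Under all 3 scalings 13 members were higher both in liver than quadriceps and in heart than gastrocnemius: Slc25a1, Slc25a2, Slc25a5, Slc25a10, Slc25a13, Slc25a20, Slc25a22, Slc25a23, Slc25a31, Slc25a38, Slc25a39, Slc25a42 and Slc25a45. Lower in both were 4, Slc25a4, Slc25a12, Slc25a27 and Slc25a35. Called in opposite directions were 7, Slc25a3, Slc25a11, Slc25a16, Slc25a25, Slc25a30, Slc25a32 and Slc25a44. By the same rule 15.5% of the 18974 genes were higher in both, 10.3% lower in both and 8.87% opposite. Across the 46 members the tissue differences of the 2 comparisons had a Pearson r of 0.43 and a Spearman rho of 0.28. Across 18974 genes r was 0.38; genes are not independent replicates, and both muscles are skeletal muscle.

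The ADP/ATP carriers exchange cytosolic ADP for matrix ATP. Slc25a4, the form typical of muscle and heart, ranged from 6.17 to 6.47 in liver (median 6.40) and from 13.03 to 13.12 in quadriceps (median 13.10). Slc25a4 was thus 105-fold lower in liver, a log2 difference of −6.72 ± 0.06 (SE, 6 arrays per tissue, limma adjusted p = 1.74e-18), and the lower end of quadriceps lay far above every liver array. The liver values lay below the medians of their arrays. In heart Slc25a4 ranged from 11.04 to 11.22 (median 11.10), against 12.08 to 12.15 in gastrocnemius (median 12.11), a difference of −1.0 ± 0.03 (limma adjusted p = 8.21e-15), again without overlap. Slc25a5, the form found in most tissues, ranged from 12.37 to 12.50 in liver, against 9.59 to 9.84 in quadriceps. Its difference of 2.73 ± 0.05 is a 6.63-fold higher level in liver (limma adjusted p = 2.32e-15). Slc25a5 ranged from 10.49 to 10.63 in heart, against 8.43 to 8.99 in gastrocnemius (1.90 ± 0.06, limma adjusted p = 6.05e-14). Slc25a4 and Slc25a5 thus differed in opposite directions in both comparisons, with no overlap between tissues for either gene. The 2 further probe sets annotated to Slc25a5 on the liver array gave 2.77 and 2.33; signal from near-identical copies may be mixed on an array, which was not tested. Slc25a31, the testis form, was low on the scale in every tissue, from 4.10 to 4.52 in liver and from 3.21 to 3.55 in quadriceps, with 3.8 to 4.18 in heart and 2.88 to 3.16 in gastrocnemius. Its differences of 1.0 (SE 0.08) and 1.0 (SE 0.06) passed the test in both comparisons, but its values lay below the median of every array.

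The aspartate/glutamate carriers bring glutamate and a proton into the matrix in exchange for aspartate and complete the malate-aspartate shuttle together with the oxoglutarate carrier. Slc25a12 ranged from 8.66 to 9.25 in liver (median 8.90), against 12.33 to 12.41 in quadriceps (median 12.38), a 10.9-fold lower level in liver (−3.45 ± 0.05, limma adjusted p = 2.89e-16). In heart it ranged from 10.58 to 10.67 (median 10.60), against 11.40 to 11.57 in gastrocnemius (−0.87 ± 0.03, limma adjusted p = 1.17e-13). Slc25a13, the citrin gene whose product also feeds aspartate to the urea cycle in liver, ranged from 11.06 to 11.32 in liver, against 5.14 to 5.52 in quadriceps. It was 55.8-fold higher in liver (5.80 ± 0.07, limma adjusted p = 1.92e-17). In heart Slc25a13 ranged from 9.40 to 9.69, against 4.79 to 5.13 in gastrocnemius, 23.4-fold higher (4.55 ± 0.04, limma adjusted p = 2.45e-21). The quadriceps and gastrocnemius values lay below the medians of their arrays.

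The difference between paralogs was also taken within every array, as a description with no test, since both genes of these pairs were already separated between the tissues. Slc25a4 minus Slc25a5 averaged −6.06 ± 0.09 in liver and 3.39 ± 0.10 in quadriceps (SD, n = 6 each), and 0.58 ± 0.05 in heart and 3.48 ± 0.18 in gastrocnemius (SD, n = 8 each). Slc25a12 minus Slc25a13 averaged −2.30 ± 0.18 in liver and 6.95 ± 0.16 in quadriceps, and 1.07 ± 0.08 in heart and 6.49 ± 0.10 in gastrocnemius. The mitoferrin pair, Slc25a28 minus Slc25a37, which carry iron into the matrix, averaged 0.73 ± 0.14 in liver and 1.30 ± 0.18 in quadriceps, and 0.90 ± 0.07 in heart and 0.61 ± 0.12 in gastrocnemius.

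**Figure D2:**
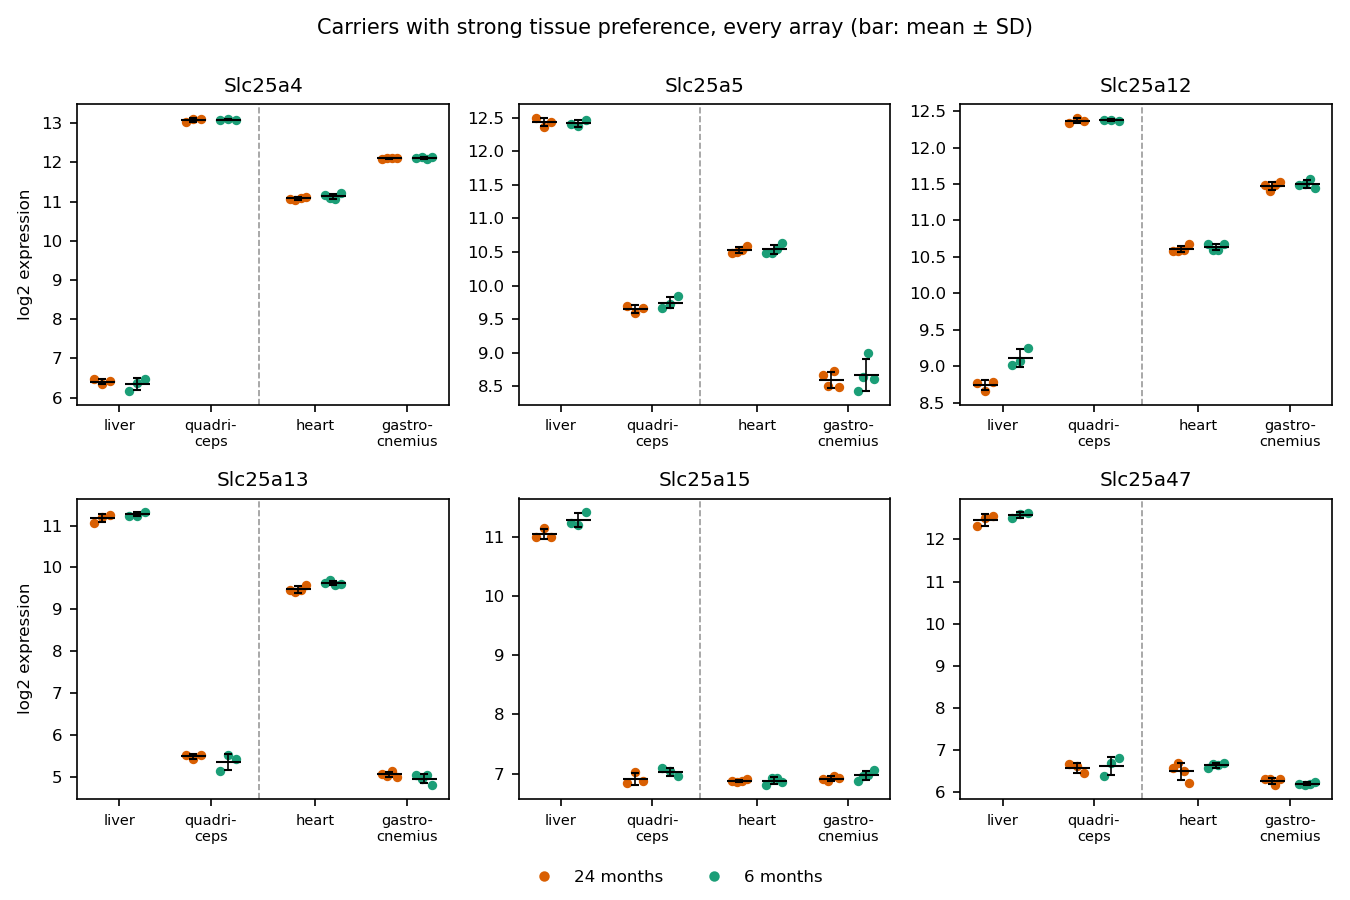
Log2 expression (y axis) of 6 carriers in every array, 24 months left of 6 months in each tissue; points are arrays and bars mean ± SD, with 3 arrays per age in liver and quadriceps and 4 in heart and gastrocnemius, and the dashed line parts the array types, whose levels are not comparable. Slc25a4 and Slc25a12 lie lowest in liver and below gastrocnemius in heart, Slc25a5 and Slc25a13 lie the other way, and Slc25a15 and Slc25a47 are high in liver arrays.

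The promoter windows of these 4 genes are shown because the paralogs of each pair ran in opposite directions. Each window is 300 bases, 250 before and 50 after the annotated start, taken from RefSeq on GRCm38.p6 and written 5′ to 3′ on the gene's strand; 36 of the 46 members have a window in the table used. Capitals mark matches, on either strand, to a TATA-type motif (TATAA), the CCAAT box (CCAAT), the GC box (GGGCGG) and an E-box palindrome (CACGTG). No match overlaps another in these windows.
Slc25a4, chr8:46211013-46211312, minus strand: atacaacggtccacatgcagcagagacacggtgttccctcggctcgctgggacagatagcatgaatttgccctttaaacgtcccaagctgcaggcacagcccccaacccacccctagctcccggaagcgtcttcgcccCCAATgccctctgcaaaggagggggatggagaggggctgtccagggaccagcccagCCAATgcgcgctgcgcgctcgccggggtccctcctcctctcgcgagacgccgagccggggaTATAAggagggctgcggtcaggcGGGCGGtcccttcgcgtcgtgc
Slc25a5, chrX:36795347-36795646, plus strand: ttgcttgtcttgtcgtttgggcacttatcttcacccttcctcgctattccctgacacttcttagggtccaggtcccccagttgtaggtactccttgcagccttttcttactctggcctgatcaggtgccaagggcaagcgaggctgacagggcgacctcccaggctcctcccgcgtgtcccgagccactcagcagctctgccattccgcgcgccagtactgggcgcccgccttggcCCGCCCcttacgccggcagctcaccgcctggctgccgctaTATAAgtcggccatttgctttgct
Slc25a12, chr2:71367706-71368005, minus strand: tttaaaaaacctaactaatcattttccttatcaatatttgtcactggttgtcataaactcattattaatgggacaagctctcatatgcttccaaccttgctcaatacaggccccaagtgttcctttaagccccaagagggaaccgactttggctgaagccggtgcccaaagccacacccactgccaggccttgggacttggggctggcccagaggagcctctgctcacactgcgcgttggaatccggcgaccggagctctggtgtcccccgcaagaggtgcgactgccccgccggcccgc
Slc25a13, chr6:6217124-6217423, minus strand: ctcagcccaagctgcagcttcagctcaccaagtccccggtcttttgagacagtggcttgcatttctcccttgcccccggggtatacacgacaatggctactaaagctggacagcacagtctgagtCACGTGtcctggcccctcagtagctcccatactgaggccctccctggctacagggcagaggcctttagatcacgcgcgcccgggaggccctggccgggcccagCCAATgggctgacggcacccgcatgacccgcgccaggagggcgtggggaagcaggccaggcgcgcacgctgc
The Slc25a4 window holds 2 CCAAT boxes, 1 GC box and 1 TATA-type match, the last 2 after the annotated start. The Slc25a5 window holds 1 TATA-type match, also after the annotated start, and 1 GC box before it. None of the 4 motifs occurs in the Slc25a12 window, while Slc25a13 has 1 CCAAT box and 1 E-box. Among 32851 RefSeq windows of the same length, 24.9% hold the TATA-type motif, 37.4% the CCAAT box, 35.7% the GC box and 7.15% the E-box. These matches are letters in a window and say nothing about binding.

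Phosphate and ATP-Mg carriers adjust the matrix pools of phosphate and adenine nucleotides. Slc25a3, the main phosphate carrier, ranged from 11.67 to 11.84 in liver, against 12.14 to 12.31 in quadriceps, a difference of −0.44 ± 0.05 (limma adjusted p = 9.00e-07). It ranged from 8.96 to 9.11 in heart, against 7.88 to 8.23 in gastrocnemius, and was higher in heart (0.995 ± 0.042, limma adjusted p = 1.27e-12). Slc25a3 was thus among the members called in opposite directions. Of the 4 ATP-Mg/phosphate carriers, Slc25a23 was higher in liver than quadriceps (2.97 ± 0.06) and in heart than gastrocnemius (1.08 ± 0.04). Slc25a24 and Slc25a41 were lower in liver (differences of −0.48 and −0.40), and their heart differences of 0.37 and 0.28 did not hold under all 3 scalings. Slc25a25, a calcium-dependent member of this group, ranged from 9.58 to 10.39 in liver, against 7.31 to 9.12 in quadriceps (1.91 ± 0.19, limma adjusted p = 4.05e-07). It ranged from 6.16 to 6.33 in heart, against 6.32 to 9.42 in gastrocnemius (−1.74 ± 0.27, limma adjusted p = 1.30e-05). The spread of Slc25a25 within both skeletal muscles, 0.65 and 1.02 as SD, was larger than within liver (0.28) or heart (0.07).

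Of the 9 amino acid carriers 7 were called higher in liver, against 47.7% of all genes, and Slc25a12 and Slc25a18 were lower. Slc25a15, which exchanges ornithine and citrulline for the urea cycle, ranged from 11.00 to 11.42 in liver, against 6.84 to 7.09 in quadriceps, 18.3-fold higher (4.20 ± 0.06, limma adjusted p = 1.36e-16). Heart and gastrocnemius values of Slc25a15 overlapped, 6.80 to 6.93 and 6.87 to 7.06, and the difference of −0.06 did not pass the test as deposited, though it was −0.34 and −0.38 and passed after quantile normalization and centring. The 5 urea cycle enzymes measured (Cps1, Otc, Asl, Arg1 and Nags) were all higher in liver, by 3.15 to 7.62 log2 units with a median of 6.38 against 0.13 over all genes. All 5 were also called higher in heart as deposited, by 0.09 to 0.57 log2 units, against 66.6% of all genes. Slc25a22, a glutamate carrier, was 10.1-fold higher in liver, with 10.45 to 10.77 in liver and 7.09 to 7.70 in quadriceps. Slc25a44, a carrier of branched-chain amino acids, was higher in liver than quadriceps (0.49 ± 0.07) and lower in heart than gastrocnemius (−0.78 ± 0.03), with 7.19 to 7.38 in heart and 7.90 to 8.11 in gastrocnemius.

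Carboxylate carriers link the citric acid cycle to cytosolic synthesis. Slc25a10, the dicarboxylate carrier, ranged from 11.31 to 11.63 in liver, against 6.98 to 7.16 in quadriceps, 21.2-fold higher (4.41 ± 0.06, limma adjusted p = 7.44e-17). The citrate carrier Slc25a1 was 9.46-fold higher in liver and Slc25a21, which carries oxodicarboxylates, 11.9-fold higher. Slc25a21 ranged from 7.72 to 8.28 in liver, against 4.17 to 4.61 in quadriceps, below the medians of the quadriceps arrays. Slc25a11, the oxoglutarate carrier, went the other way and was lower in liver (−1.12 ± 0.06), with 10.57 to 10.94 in liver and 11.76 to 11.98 in quadriceps. In heart Slc25a11 was higher, with 11.05 to 11.14 in heart and 9.81 to 10.24 in gastrocnemius (1.11 ± 0.05, limma adjusted p = 1.16e-12). All 4 carboxylate carriers were called higher in heart as deposited, against 66.6% of all genes, and 3 of them under all 3 scalings, against 29.2%. The 4 malate-aspartate enzymes measured were all called higher in heart as deposited, by 0.56 to 1.07 log2 units, against 66.6% of all genes. In liver 1 of them was called higher and 1 lower, against 47.7% and 29.5% of all genes.

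Slc25a20, which exchanges acylcarnitine for carnitine and so admits fatty acids to oxidation, ranged from 10.77 to 10.88 in liver, against 9.24 to 9.72 in quadriceps (1.26 ± 0.08, limma adjusted p = 2.27e-09). It ranged from 10.90 to 11.08 in heart, against 9.74 to 10.24 in gastrocnemius (0.99 ± 0.06, limma adjusted p = 1.65e-10). Of the carnitine shuttle enzymes Cpt1a, Cpt1b, Cpt2 and Crat, 4 of 4 measured were called higher in heart as deposited, by 0.35 to 1.94 log2 units, against 66.6% of all genes. In liver 2 of the 3 measured were called higher, Cpt1a and Cpt2, and Crat was called lower, against 47.7% and 29.5% of all genes. Cpt1b was not among the genes measured on that array type.

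Among carriers linked to iron and glutathione, Slc25a39, a carrier needed for mitochondrial glutathione, was 7.29-fold higher in liver, with 12.02 to 12.22 in liver and 9.17 to 9.29 in quadriceps. It was also higher in heart (1.10 ± 0.05), with 8.57 to 8.66 in heart and 7.35 to 7.86 in gastrocnemius. The mitoferrins differed less: Slc25a28 was lower in liver (−0.35 ± 0.05), and Slc25a37 ranged from 7.84 to 8.06 in liver and from 7.55 to 8.05 in quadriceps, with overlap. Slc25a37 had differences of 0.22 in liver, which did not hold under the other scalings, and −0.03 in heart. The paralog of Slc25a39, Slc25a40, had 0.03 in liver from its brighter probe set and −0.38 from the dimmer one, so its 2 probe sets did not give the same difference.

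Of the 8 carriers of cofactors and other nucleotides, 6 were called higher and 2 lower in liver, against 47.7% and 29.5% of all genes, with 5 higher and 2 lower under all 3 scalings. Slc25a36, a pyrimidine nucleotide carrier, ranged from 6.20 to 6.64 in liver, against 9.10 to 9.72 in quadriceps, 7.88-fold lower (−2.98 ± 0.08, limma adjusted p = 7.36e-14), and −2.58 by its second probe set; its liver values lay below the medians of the liver arrays. Slc25a17, a peroxisomal carrier of coenzyme A and related cofactors and so an exception to the mitochondrial location, was 2.99-fold higher in liver. Slc25a42, the mitochondrial coenzyme A carrier, was higher in liver (1.32 ± 0.06) and in heart (0.77 ± 0.04). Slc25a16 was higher in liver (1.10 ± 0.05) and lower in heart (−0.32 ± 0.04), with 7.99 to 8.18 in heart and 8.30 to 8.51 in gastrocnemius.

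Among relatives of the uncoupling proteins, Slc25a27 was lower in liver (−1.41 ± 0.09), with 5.89 to 6.61 in liver and 7.56 to 7.90 in quadriceps, and Slc25a30 was 4.17-fold higher (2.06 ± 0.11). In heart both were lower, Slc25a27 with a difference of −0.26 and Slc25a30 with 6.83 to 6.98 in heart and 7.05 to 7.75 in gastrocnemius (−0.43 ± 0.08). Slc25a14, the remaining member of this group, was higher in liver (0.335) and, as deposited, in heart (0.36). Its heart call did not hold under all 3 scalings, and its mean level lay below the array medians in every tissue. Ucp3, the uncoupling protein of skeletal muscle and a family member under another name, had differences of −5.45 in liver and −1.01 in heart. It was the lowest of the 4 measured relatives under other names in both comparisons. Of those 4, 2 were called higher and 1 lower in liver, against 47.7% and 29.5% of all genes. In heart 2 were called higher and 2 lower, against 66.6% and 16.2%. Slc25a46, an outer membrane protein of mitochondrial dynamics, differed little, by −0.16 in liver and 0.23 in heart.

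Of the members of uncertain substrate, Slc25a47, known as a gene of hepatocytes, ranged from 12.31 to 12.63 in liver, against 6.40 to 6.81 in quadriceps. It was 60.2-fold higher in liver (5.91 ± 0.08, limma adjusted p = 5.08e-17). In heart and gastrocnemius Slc25a47 overlapped, 6.23 to 6.71 and 6.17 to 6.32, and its difference of 0.335 as deposited was 0.03 after quantile normalization and 0.02 after centring. Replicate 1 of 24-month quadriceps, the array with the higher hepatocyte markers, had 6.68 for Slc25a47, within the range of the other quadriceps arrays. Slc25a35 was lower in liver (−0.81 ± 0.07), with 6.34 to 6.56 in liver and 7.05 to 7.41 in quadriceps.

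Slc25a34 ranged from 9.71 to 10.11 in heart (median 9.83), against 6.53 to 7.74 in gastrocnemius (median 7.46), 6.11-fold higher (2.61 ± 0.16, limma adjusted p = 1.92e-10). Within the muscles Slc25a34 varied more than most members, with an SD of 0.44 in quadriceps and 0.48 in gastrocnemius. In gastrocnemius the 24-month arrays had 7.53, 7.19, 7.46 and 6.54 and the 6-month arrays 7.45, 7.68, 7.74 and 6.53, so replicate 4 of each age lay lowest. Those same arrays had the lowest means over the 5 slow fibre markers, 7.20 in replicate 4 at 24 months and 7.36 in replicate 4 at 6 months, against 7.88 to 8.68 in the other 6. They were also the lowest of their ages for the 4 endothelial markers (7.64 at 24 months and 7.97 at 6 months, against 7.88 to 8.34 in the other 6) and the 4 malate-aspartate genes (10.9 at 24 months and 11.1 at 6 months, against 11.2 to 11.4 in the others). The same held, at 24 and 6 months, for skeletal muscle (12.94 and 13.03), heart muscle (7.01 and 7.07) and leukocyte markers (5.79 and 5.74). It also held for the mitochondrial content genes (10.27 and 10.29), but not for the hepatocyte, adipocyte or exocrine pancreas markers. In quadriceps replicate 3 at 6 months had the highest Slc25a34, 7.63, and the highest slow fibre mean, 9.48, and replicate 1 at 24 months had 6.58 beside a mean of 8.12. Slow fibre markers also differed between the tissues, with list means of 9.70 to 9.82 in heart, but not all in 1 direction. Of the 5 markers, 3 were called higher in heart and 2 lower, against 66.6% and 16.2% of all genes. Their differences ran from −1.62 to 4.17. The part of these lists in the Slc25a34 difference was not tested.

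**Figure D3:**
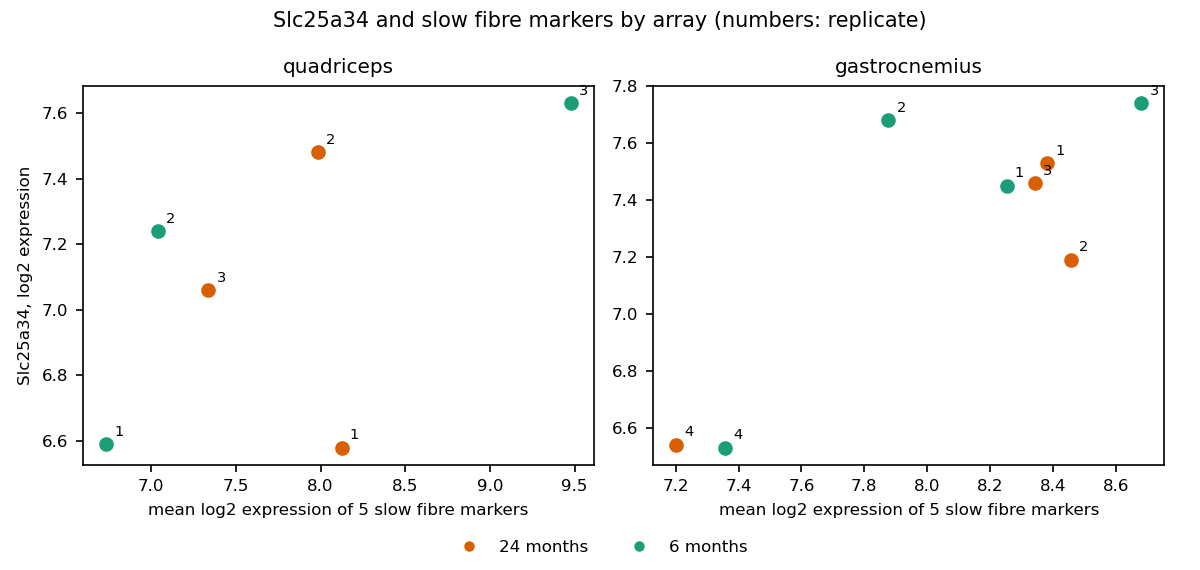
Slc25a34 (y axis, log2 expression) against the mean log2 expression of 5 slow fibre markers (x axis) in quadriceps (left) and gastrocnemius (right), each point an array numbered by replicate, orange for 24 months and green for 6 months. Replicate 4 of both ages lies lowest on both axes in gastrocnemius, at 6.54 and 6.53 on the y axis. These arrays were also the lowest of their ages for several other lists, which are not drawn.

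Other mitochondrial genes were set beside the carriers, with the deposited scaling. There were 8 reference genes of mitochondrial content, among them citrate synthase (Cs) and subunits of the respiratory chain and ATP synthase. Of these, 7 were called lower in liver than quadriceps and 0 higher, against 29.5% and 47.7% of all genes, with a median of −0.55. The outer membrane channels Vdac1, Vdac2 and Vdac3 were lower in liver, with differences of −2.23, −1.48 and −1.74, and Tspo, an outer membrane protein in the same list of 4, was higher (1.44). The 14 inner membrane transporters outside the Slc25 family included the pyruvate carrier subunit Mpc1 and the calcium uniporter Mcu. Of these, 6 were higher and 7 lower in liver, against 47.7% and 29.5% of all genes, with Sfxn1, a serine carrier, highest (3.73). In heart 9 of the 13 measured were higher and 3 lower, against 66.6% and 16.2% of all genes. In heart 7 of the 8 reference genes were called higher than in gastrocnemius and 1 lower, against 66.6% and 16.2% of all genes. Their median was 0.58. Of the 4 outer membrane genes, 1 was called higher in heart and 3 lower, with a median of −0.37. The carrier import genes take carriers through the outer membrane and insert them in the inner one. Of the 12 measured, 6 were higher and 5 lower in liver, against 47.7% and 29.5% of all genes. In heart 5 were higher and 4 lower, against 66.6% and 16.2%.

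The next comparisons asked whether carriers differed between 24 and 6 months. No member passed the threshold in any tissue. Over all genes 0.326% were called in liver, 0.00502% in quadriceps, 0.00665% in heart and 0.00998% in gastrocnemius (limma, adjusted p under 0.05), so calls were few overall. Before adjustment, p fell under 0.05 for 8 members in liver, 3 in quadriceps, 4 in heart and 8 in gastrocnemius, against 32.8%, 7.06%, 5.99% and 16.5% of all genes in the same tissues. Of the 184 age differences, 46 genes in 4 tissues, 164 lay within 0.2 log2 units and 4 exceeded 0.5. Those 4 were Slc25a25 in both skeletal muscles, Slc25a36 in quadriceps and Slc25a30 in liver, all lower at 24 months and named after their values were seen. In all 4 tissues 7 members had a lower mean at 24 months (Slc25a3, Slc25a11, Slc25a12, Slc25a15, Slc25a27, Slc25a34 and Slc25a38), none of them past the threshold, and 0 had a higher mean in all 4. Of the 18974 genes 7.15% had a lower mean in all 4 tissues and 12.4% a higher one.

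**Figure D4:**
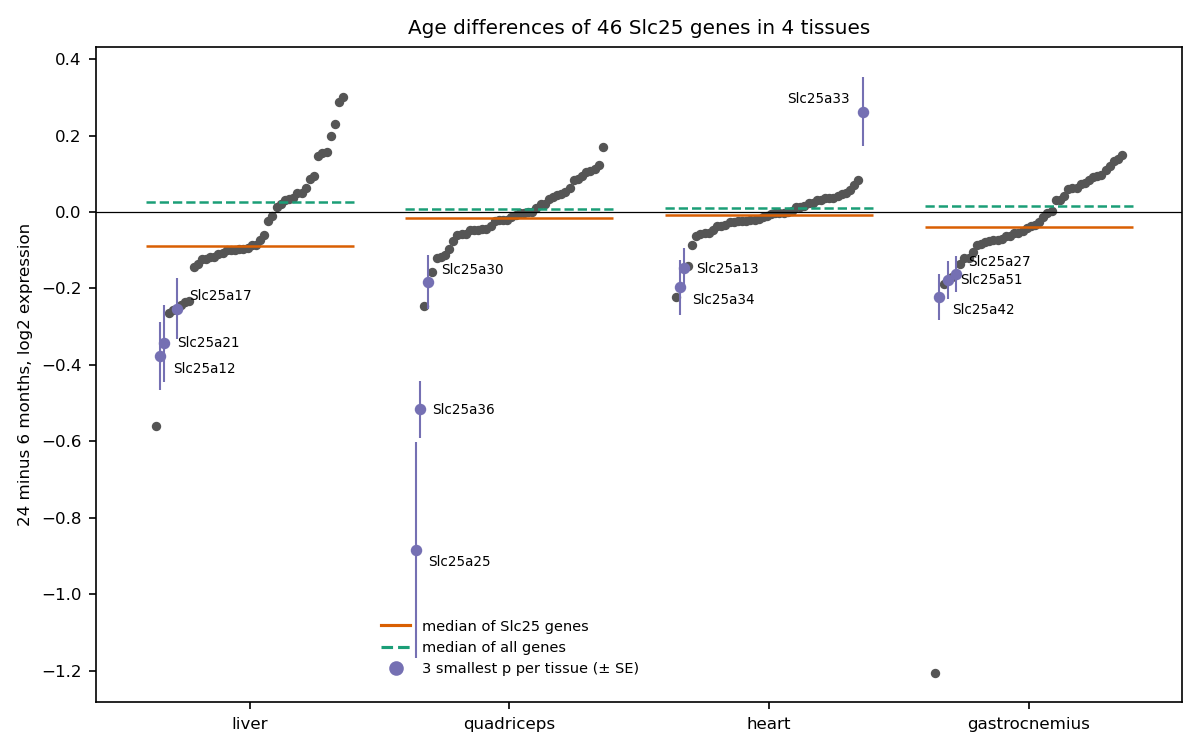
Differences between 24 and 6 months (y axis, log2 expression) of the 46 Slc25 genes in each tissue, each point a gene in order of its difference, with SE bars for the 3 genes of smallest p. Most points lie within 0.2 of 0; the lowest are Slc25a25 at −1.21 in gastrocnemius and −0.88 in quadriceps.

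In liver the median age difference was −0.09 over the members and 0.03 over all genes, and 31 of 46 members lay below the median of all genes. With dim genes left out, the medians were −0.098 over the 34 members tested and −0.087 over all 10704 genes kept. In other lists, with no gene past the threshold, 0 of 8 mitochondrial content genes, 0 of 12 import genes, 0 of 4 outer membrane genes and 0 of 5 urea cycle genes had a higher mean at 24 months, with medians of −0.12, −0.17, −0.25 and −0.11. The share of all genes with a higher mean was not counted, and the lists were not set against genes of like brightness. The content genes averaged 10.6 to 10.7 in 24-month liver arrays, against 10.8 to 10.9 in 6-month ones. The 7 skeletal muscle markers all had a higher mean at 24 months, with a median difference of 0.32. The interquartile range of all values was 2.27, 2.34 and 2.54 in the 24-month arrays, against 2.64, 2.70 and 2.68 in the 6-month arrays. The part of these in the carriers' differences was not tested. Slc25a12 had 8.77, 8.66 and 8.78 at 24 months, against 9.02, 9.07 and 9.25 at 6 months, without overlap (−0.38 ± 0.09, limma adjusted p = 0.0571). Slc25a21 had 7.74, 7.72 and 7.94 at 24 months, against 8.15, 8.0 and 8.28 at 6 months, also without overlap (−0.34 ± 0.10, limma adjusted p = 0.0721). Slc25a17 had 9.39, 9.38 and 9.53 at 24 months, against 9.71, 9.63 and 9.72 at 6 months (−0.25 ± 0.08, limma adjusted p = 0.0801). Groups without overlap were common in liver: 36.1% of all genes had none, against 9 of 46 members, 7 lower and 2 higher at 24 months. Slc25a30 had 9.64, 9.43 and 9.33 at 24 months, against 10.10, 10.38 and 9.60 at 6 months, with overlap (−0.56 ± 0.18, limma adjusted p = 0.0815). These liver results depend on the setting: without replicate 3 of 24-month liver 6 members passed, 5 of them lower, among 5073 genes called, while 0 passed when any other single array was left out, the one with the high exocrine pancreas markers included. Slc25a12, Slc25a21 and Slc25a17 also passed after centring, after leaving out dim genes and with an intensity trend and robust prior. Their adjusted p-values from limma lay between 0.0264 and 0.0464. Calls were far more common under those settings: 1960 of 19928 genes, 1731 of 10704 and 2243 of 19928 in turn, against 65 in the main fit.

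In quadriceps Slc25a36 had 9.27, 9.10 and 9.10 at 24 months, against 9.66, 9.72 and 9.64 at 6 months, without overlap. Its difference of −0.52 ± 0.07 had an unadjusted p of 9e-05 and an adjusted p of 0.163 (limma, 3 arrays per age); with an intensity trend and robust prior the adjusted p was 0.0257. The second probe set of Slc25a36 gave −0.41. In the other tissues Slc25a36 differed by −0.10 in liver, −0.22 in heart and 0.03 in gastrocnemius. Slc25a25 had 7.31, 7.66 and 8.38 at 24 months, against 8.28, 8.60 and 9.12 at 6 months, with overlap (−0.88 ± 0.28, limma adjusted p = 0.6). Slc25a30 had 7.67, 7.58 and 7.54 at 24 months, against 7.85, 7.74 and 7.75 at 6 months, without overlap (−0.18 ± 0.07, limma adjusted p = 0.660). Groups without overlap made up 12% of all genes in quadriceps, and 3 of 46 members, all lower at 24 months.

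In heart the age differences were small, and the member of smallest p was Slc25a33, a pyrimidine nucleotide carrier. Slc25a33 had 7.18, 6.89, 7.35 and 7.28 at 24 months, against 6.87, 6.99, 6.92 and 6.87 at 6 months, with overlap (0.26 ± 0.09, limma adjusted p = 0.683). Slc25a13 had 9.45, 9.40, 9.46 and 9.59 at 24 months, against 9.62, 9.69, 9.58 and 9.60 at 6 months, and only the highest 24-month array overlapped the 6-month range (−0.15 ± 0.05, limma adjusted p = 0.692). Slc25a34 had 9.74, 9.82, 9.71 and 9.84 at 24 months, against 9.98, 10.04, 9.77 and 10.11 at 6 months (−0.20 ± 0.07, limma adjusted p = 0.733). None of the 46 members had ages without overlap in heart, where 3.29% of all genes did.

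In gastrocnemius Slc25a42 had 7.62, 7.55, 7.77 and 7.64 at 24 months, against 7.82, 7.91, 7.95 and 7.79 at 6 months, without overlap (−0.22 ± 0.06, limma adjusted p = 0.146). Slc25a51, a carrier of NAD, had 7.69, 7.70, 7.84 and 7.77 at 24 months, against 7.89, 7.95, 7.94 and 7.93 at 6 months, without overlap (−0.18 ± 0.05, limma adjusted p = 0.148). Slc25a27 had 6.94, 6.90, 7.03 and 6.94 at 24 months, against 7.13, 7.14, 7.07 and 7.12 at 6 months (−0.16 ± 0.05, limma adjusted p = 0.159). Fitted jointly with heart, Slc25a42 and Slc25a51 passed, with limma adjusted p-values of 0.0328 and 0.0356. That fit called 829 of all 30063 genes, against 3 in the main fit. Slc25a25 had 6.32, 7.19, 7.78 and 8.27 at 24 months, against 7.62, 8.09, 9.25 and 9.42 at 6 months, with overlap (limma adjusted p = 0.260). Its difference of −1.21 (SE 0.48) ranged from −1.53 to −0.85 when single arrays were left out. The ages did not overlap for 4 members, against 8.65% of all genes.

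**Figure D5:**
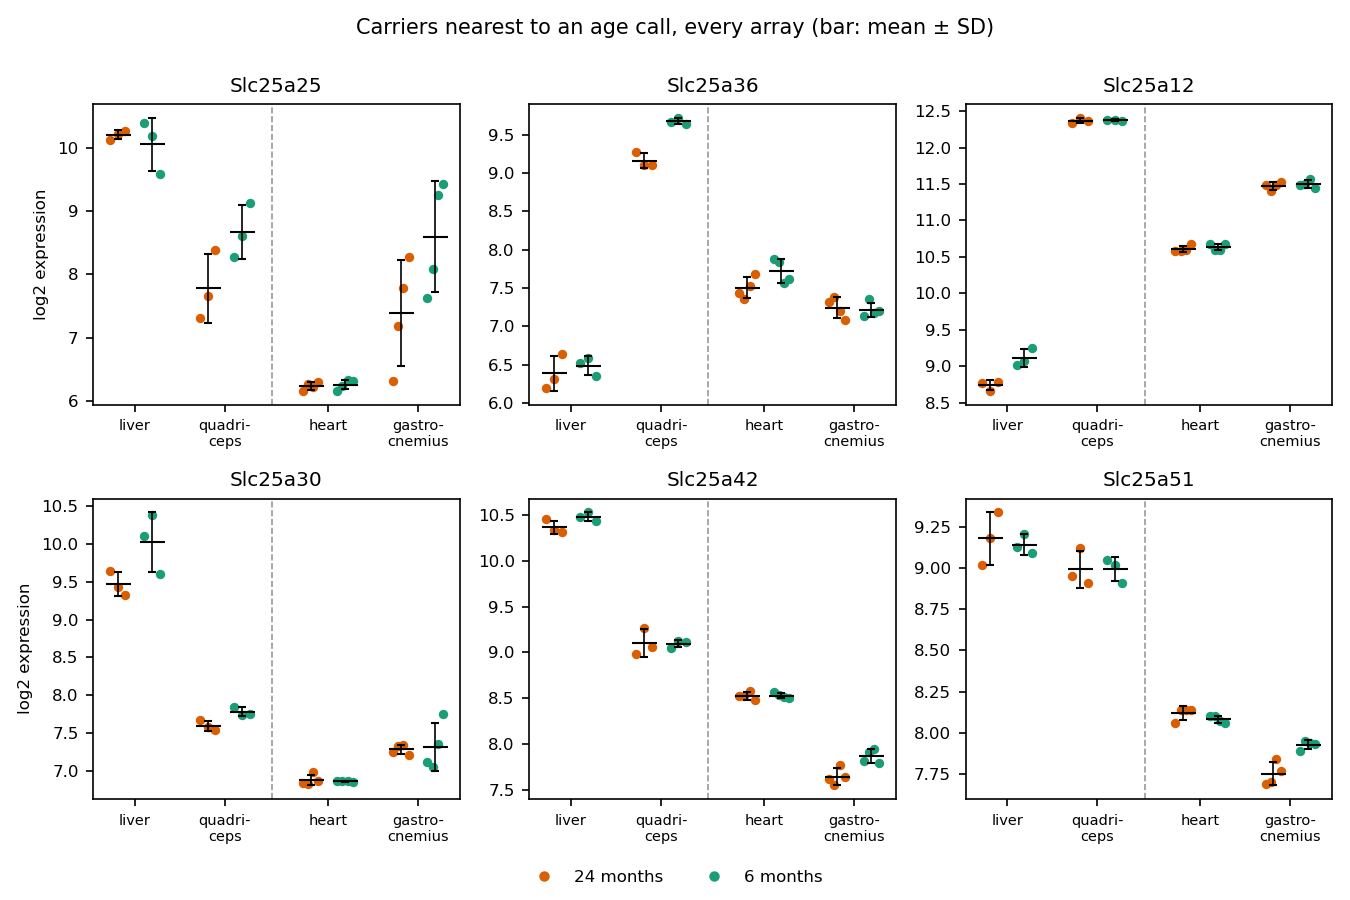
Log2 expression (y axis) of 6 of the carriers described for the age comparisons in every array, 24 months (orange) left of 6 months (green) in each tissue. Bars are mean ± SD and the dashed line parts the array types. Slc25a21 and Slc25a17, with lower adjusted p-values in liver than Slc25a25 in either skeletal muscle, are not drawn. Slc25a36 in quadriceps and Slc25a51 in gastrocnemius show ages without overlap, while Slc25a25 spreads widely at both ages in both skeletal muscles.

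The last comparisons asked whether the age difference itself differed between the tissues of an array type. No member passed, against 0.0151% of all genes for liver against quadriceps and 0.595% for heart against gastrocnemius (limma interaction term, adjusted p under 0.05). Before adjustment, p fell under 0.05 for 7 members in each, against 19.8% and 13.8% of all genes. Slc25a12 had the smallest p in the first, with an age difference of −0.38 in liver and −0.0033 in quadriceps and an interaction of −0.37 ± 0.10 (limma adjusted p = 0.117). Slc25a23 followed with 0.35 ± 0.12 (0.30 in liver and −0.05 in quadriceps, limma adjusted p = 0.163), and Slc25a36 with 0.42 ± 0.15 (limma adjusted p = 0.171). In the second the smallest p were those of Slc25a51 (0.215 ± 0.059, limma adjusted p = 0.114), Slc25a42 (0.22 ± 0.07, limma adjusted p = 0.186) and Slc25a46 (−0.21 ± 0.07, limma adjusted p = 0.196). Slc25a46 had 9.13, 9.19, 9.29 and 9.34 in 24-month heart and 9.34, 9.29, 9.27 and 9.40 in 6-month heart, with overlap. In gastrocnemius it had 9.12, 9.07, 9.10 and 9.14 at 24 months, against 9.05, 8.96, 8.98 and 8.96 at 6 months, without overlap. Among the related lists, no urea cycle, malate-aspartate, carnitine shuttle, import, outer membrane channel or mitochondrial content gene passed the age test in any tissue.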

How the data were processed

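Total RNA of 28 samples was hybridised to Affymetrix whole-transcript arrays of 2 types. The deposited values are log2 expression per probe set, rounded to 2 decimals by the authors, in a table for each array type. RMA, which normalizes arrays to each other, is named without a version in the submitters' processing notes, and no source used here tells whether both tissues of a table were normalized jointly. Normalization between arrays can remove a shift common to most genes. The tables held no detection calls and no depth; the number of arrays limits the precision, with a median standard error over the members of 0.09, 0.08, 0.05 and 0.06 log2 units for the age differences of liver, quadriceps, heart and gastrocnemius.

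Probe sets with 1 gene symbol were used (21797 of 28944 on the liver and quadriceps array, 30604 of 65956 on the other), symbols were updated through RefSeq names of GRCm38.p6 (23 and 1135 probe sets), and a gene was represented by its probe set of highest mean, leaving 19928 and 30063 genes. Differences were fitted in R 4.3.3 with limma 3.58.1 (lmFit, eBayes, two-sided) on all genes, with Benjamini-Hochberg adjustment over all genes and a threshold of 0.05: age within each tissue, tissues of an array type averaged over the ages, and their interaction. The fits were tested on simulated data. No 2 arrays held identical values (0 pairs).

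Members and gene lists were chosen with earlier results of these data known. Members described array by array were the 6 of largest difference per direction in each tissue comparison, the 3 of smallest p in each age comparison and interaction, and 11 textbook carriers. Alternatives were quantile normalization, median centring, leaving out dim genes, the mean of probe sets, an intensity trend with robust prior, cyclic loess with 3 iterations, a joint fit, 1 age only, the replicate number as a block and leaving out each array. Deviations of same-numbered arrays from their group means correlated at −0.22 to 0.30; across the ages of gastrocnemius they were 0.13, 0.21 and 0.30 for 3 numbers and −0.04 for the other. Between heart and gastrocnemius at 24 months they were 0.19, 0.01, 0.17 and 0.02. No set was above 0.1 for every number, so the numbers were not taken to pair the samples. Whether same-numbered arrays share a batch, or within an age an animal, was not tested.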

Additional observations from a re-analysis of the deposited data

Results flagged for a closer look

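Within groups of 4 arrays, 3 of 92 sets of values for the described members held an array set far from the others of its group relative to their range; chance gives about 1 in 20 such sets. Slc25a39 was 8.60 in replicate 4 of 24-month heart, with 8.65 to 8.66 in the other 3. Slc25a47 was 6.17 in replicate 3 of 24-month gastrocnemius, with 6.31 to 6.32 in the others. Slc25a51 was 8.06 in replicate 1 of 24-month heart, with 8.14 in each of the others. All 3 gaps are at most 0.14 log2 units.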

How the results depend on the processing

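Of the alternatives tried, the tissue comparisons had between 33 and 42 of the 46 members past the threshold (fewer were tested once dim genes were left out, 38 and 37), with 40 to 41 in liver against quadriceps and 39 to 42 in heart against gastrocnemius when single arrays were left out. In heart against gastrocnemius the 32 higher and 9 lower calls became 22 and 17 after quantile normalization and 18 and 17 after centring, with Slc25a26, Slc25a43 and Slc25a53 turning to lower calls in both. For Slc25a37 the direction turned in liver against quadriceps after quantile normalization (−0.0412) and in heart against gastrocnemius with 24-month arrays only (0.01); the cause was not tested. In liver 0 members passed for age, but 4 passed after median centring, 3 with dim genes left out (34 members tested), 4 with an intensity trend and robust prior, 4 in the joint fit with quadriceps and 0 to 6 when single arrays were left out; the cause was not tested. In quadriceps 1 passed with the intensity trend and robust prior. In gastrocnemius 2 passed in the joint fit with heart, where 829 of all 30063 genes were called. For the interactions 1 member passed in heart against gastrocnemius with dim genes left out, 0 to 1 when single arrays were left out there, and 0 to 1 in liver against quadriceps, each 1 being without replicate 3 of the 24-month liver (Slc25a12) or gastrocnemius (Slc25a51). Age calls over all genes were less stable: 65 genes in liver became 0 without replicate 2 or replicate 3 at 6 months, 5073 without replicate 3 at 24 months, 8 after quantile normalization, 1960 after centring, 1731 with dim genes left out, 2243 with the intensity trend and robust prior and 3625 in the joint fit. The other counts over all genes ranged from 0 to 18 in quadriceps (1 as reported), 0 to 25 in heart (2), 0 to 829 in gastrocnemius (3), 0 to 1462 for the first interaction (3) and 6 to 547 for the second (179). With the replicate number as a block, 0 members passed for age in any tissue or interaction, 41 in liver against quadriceps and 40 in heart against gastrocnemius; the numbers were not taken to pair the arrays. The 9 to 14 members per tissue below the array medians, Slc25a4 and Slc25a36 in liver and Slc25a13 and Slc25a21 in quadriceps and gastrocnemius among them, have no detection call behind them.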
